A study of Mus musculus and Homo sapiens with 8 samples.

Results

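MTND2P28, MTCO1P12, MTCO2P12, MTATP6P1 and MTCO3P12 are nuclear copies of mitochondrial genes on human chromosome 1. They were taken by their Ensembl identifiers (ENSG00000225630, ENSG00000237973, ENSG00000229344, ENSG00000248527 and ENSG00000198744, in that order) from a count table of 60675 rows, so they are 5 of 60675. RNA-seq was done on HepG2 cells, an established human liver carcinoma line at 25 population doublings, after 24 h with arsenite (2 libraries) or after 24 h with water (2 libraries). Arsenite is an oxyanion of trivalent arsenic that reacts with thiol groups of proteins. The labels put 5 nM on the arsenite groups and the same figure on the water controls. Whether the libraries of a group were grown as separate cultures is not in the labels, so the spread between them may be technical. The series also holds 4 NIH3T3 mouse fibroblast libraries, which were not used here because the human identifiers do not belong to their values: after row 47729, the NIH3T3 columns repeat their first 12946 rows.

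Pieces of the mitochondrial genome have been copied into nuclear chromosomes many times, and such a piece still reads like a run of mitochondrial genes. The genes copied here encode subunits of the respiratory chain: ND2 is a subunit of complex I, CO1, CO2 and CO3 are the core subunits of cytochrome c oxidase, and ATP6 is a membrane subunit of ATP synthase. Cytosolic ribosomes read some codons of these genes differently from mitochondrial ribosomes, and the copies are classed as pseudogenes. A copy that is nearly identical to its source can receive reads from mitochondrial transcripts and the reverse. The sources used here do not state whether reads that fit several places were counted, so a count in these rows is a count of reads assigned to them and does not show where the RNA was made.

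HepG2 libraries held 27192636 and 27361110 counts with arsenite, against 26965049 and 27481613 with water. The rows of the mitochondrial genome, 13 mRNAs and 2 rRNAs taken from a list of identifiers, held 5.93% and 6.16% of the counts with arsenite and 9.50% and 8.93% with water. Arsenite libraries also differed in markers of cell type: 9 identifiers listed for fibroblasts summed to 75.5 and 78.8 CPM (counts per 1000000 counts of the library) with arsenite, against 37.2 and 45.1 CPM with water. Of the 9 rows, 1 held most of these counts, and the other 8 summed to 715 and 607 counts with arsenite, against 11 and 8 counts with water. Of these 9, 1 and 2 were at 0 with arsenite and 5 and 5 with water. A filter on low counts left 6 to be tested, and all 6 were called higher (5 of them with library totals alone). Over all genes tested, 11.8% were called higher (7.87% with library totals alone). Rows at or near 0 with water could pass that filter only through the arsenite libraries, so nothing is read from this count. With no filter 5 of 8 were called higher, against 5.31% of all genes. DESeq2 tested 3 and called 3 higher, against 14.1% of all genes. The 8 identifiers listed for hepatocytes summed to 14840 and 21340 CPM with arsenite and 26320 and 23220 CPM with water, with none at 0. That difference lay in the most abundant row: the other 7 summed to 230160 and 236654 counts with arsenite and 220369 and 212508 counts with water. Of the 8, 2 were called higher and 1 lower with arsenite, and their median log2 fold change was 0.23. That is 37.5% called, near the 30.6% of all genes tested, so nothing is read from it. By DESeq2, 2 were called higher and 0 lower. The part of these differences in the pseudogene values was not tested.

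The pseudogenes did not move as one with arsenite. MTND2P28 was lower in both arsenite libraries, 2.54-fold in the fit. MTCO2P12 was higher in both arsenite libraries, 2.58-fold in the fit, from few reads and with arsenite libraries that differed widely from each other. MTATP6P1, the most abundant of them, lay at nearly the same level in all 4 libraries, and MTCO1P12 and MTCO3P12 had small differences of the size of their replicate spread. In bulk RNA, fewer cells that carry a transcript and less of it per cell cannot be told apart.

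The members were chosen by identifier with earlier results of these HepG2 libraries known, so their own differences are given as a description, without p-values. Log2 fold changes are arsenite over water, from a model fitted across all 14389 genes that passed a filter on low counts (edgeR, with TMM scaling of library sizes). The standard error (SE) given with them was derived from that fit. It is the absolute log2 fold change divided by the square root of the F statistic of the gene's test. All 5 members passed that filter. At an adjusted p of 0.05 (Benjamini-Hochberg) the fit called 2 of the 5, MTND2P28 lower and MTCO2P12 higher, where it called 30.6% of all genes tested (11.8% of all genes higher and 18.8% lower with arsenite). Nothing is read from that count, since the choice of members was not independent of it. The CPM ranges of the 2 groups did not overlap for 3 of the 5 members, as they did not for 66.7% of all genes tested.

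**Figure D1:**
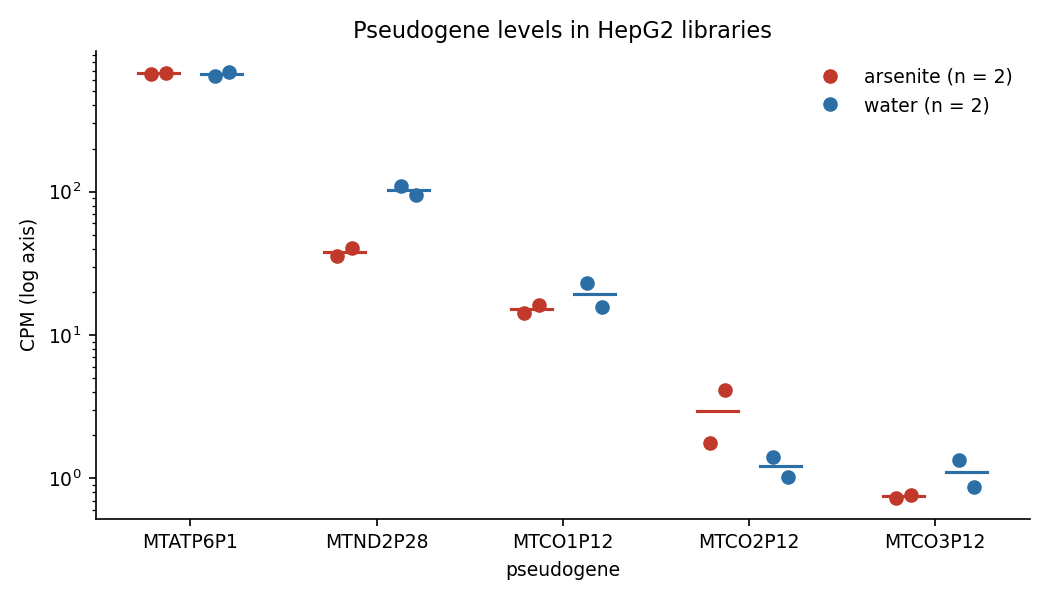
CPM of each pseudogene in each HepG2 library on a log axis. Points are libraries, horizontal lines are the means of 2 libraries, red is arsenite and blue is water. MTND2P28 and MTCO2P12 stand apart between the groups in opposite directions. MTCO3P12 also stands apart, lower with arsenite, but from few reads and by only 1.14-fold between the nearest libraries. MTATP6P1 lies between 638.8 and 683.2 CPM in all 4 libraries.

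MTND2P28 copies the ND2 gene, whose protein is part of the proton-pumping arm of complex I. It had 970 and 1107 counts with arsenite, against 2974 and 2589 counts with water. Scaled to library totals, these were 35.7 and 40.5 CPM with arsenite and 110.3 and 94.2 CPM with water. Both arsenite libraries lay below both water libraries, and the lowest water library was 2.33 times the highest arsenite library. MTND2P28 averaged 38.1 ± 3.39 CPM with arsenite and 102.3 ± 11.4 CPM with water (SD, n = 2 each). Its log2 fold change was -1.34 (SE 0.18). Replicates differed 1.13-fold with arsenite and 1.17-fold with water, less than the difference between the groups.

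MTATP6P1 copies the ATP6 gene, whose protein forms part of the proton channel of ATP synthase. It had 17984 and 18535 counts with arsenite, against 17224 and 18775 counts with water. These were 661.4 and 677.4 CPM with arsenite and 638.8 and 683.2 CPM with water, so both arsenite libraries fell between the water libraries. MTATP6P1 averaged 669.4 ± 11.4 CPM with arsenite and 661.0 ± 31.4 CPM with water (SD, n = 2 each). Its log2 fold change was 0.10 (SE 0.15), within the replicate spread. That sign was set by the scaling: it was 0.02 with library totals alone and -0.03 with totals that left out the mitochondrial and pseudogene rows.

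MTCO1P12 copies the CO1 gene, whose protein holds the catalytic centre of cytochrome c oxidase. It had 386 and 441 counts with arsenite, against 626 and 429 counts with water, or 14.2 and 16.1 CPM with arsenite and 23.2 and 15.6 CPM with water. Only the first water library stood above the others, and the groups overlapped. MTCO1P12 averaged 15.2 ± 1.36 CPM with arsenite and 19.4 ± 5.38 CPM with water (SD, n = 2 each), with a log2 fold change of -0.28 (SE 0.19). This value rested on water replicate 1: without it the log2 fold change was 0.06, and without water replicate 2 it was -0.54.

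MTCO2P12 copies the CO2 gene, whose protein takes electrons from cytochrome c. It had 48 and 114 counts with arsenite, against 38 and 28 counts with water. The exact 95% Poisson intervals, which cover counting error alone, were 35.4 to 63.6 and 94.0 to 136.9 counts with arsenite and 26.9 to 52.2 and 18.6 to 40.5 counts with water. Arsenite replicate 2 thus stood above the other 3 libraries beyond counting error, while the interval of arsenite replicate 1 overlapped both water intervals. MTCO2P12 averaged 2.97 ± 1.70 CPM with arsenite and 1.21 ± 0.28 CPM with water (SD, n = 2 each). Its log2 fold change was 1.37 (SE 0.28), and 0.69 without arsenite replicate 2, where the fit no longer called it. Without arsenite replicate 1 the log2 fold change was 1.87. For every gene, the fitted spread followed the trend with abundance, with no weight on the replicates of the single gene. The SE of MTCO2P12 thus does not hold the 2.36-fold difference between its arsenite replicates. The same limit applies to every other SE, p-value and call of this fit.

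MTCO3P12 copies the CO3 gene, which encodes the remaining core subunit of cytochrome c oxidase made in mitochondria. It had 20 and 21 counts with arsenite, against 36 and 24 counts with water. Exact 95% Poisson intervals were 12.2 to 30.9 counts in arsenite replicate 1, up to 32.1 counts in arsenite replicate 2, and 25.2 to 49.8 and 15.4 to 35.7 counts with water. Both arsenite counts lay below both water counts, but each arsenite interval overlapped both water intervals. Overlap of intervals of single libraries is not a test of the groups, so no conclusion on a difference is drawn from it. MTCO3P12 averaged 0.752 ± 0.023 CPM with arsenite and 1.10 ± 0.33 CPM with water (SD, n = 2 each), with a log2 fold change of -0.47 (SE 0.35). Without water replicate 1 it was -0.12.

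Levels of different genes were compared per kilobase of the row's length, which was recovered from the deposited counts and RPKM. The lengths were 1044 bp for MTND2P28, 1543 bp for MTCO1P12, 682 bp for MTCO2P12, 681 bp for MTATP6P1 and 547 bp for MTCO3P12. MTATP6P1 had 971.2 and 994.7 CPM per kb with arsenite, against 938.0 and 1003 CPM per kb with water, and lay above 99.8% of the genes tested in its mean level over the 4 libraries. MTND2P28 came next in every library, with 34.2 and 38.8 CPM per kb with arsenite and 105.6 and 90.2 CPM per kb with water, and lay above 96.2% of genes. The mean level of MTATP6P1 was 27.0 times that of MTND2P28 with arsenite and 9.91 times with water.

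MTCO1P12 followed in every library, at 9.20 and 10.4 CPM per kb with arsenite and 15.0 and 10.1 CPM per kb with water, above 74.6% of genes. The order of the last pair differed between the groups. With arsenite MTCO2P12, at 2.59 and 6.11 CPM per kb, lay above MTCO3P12, at 1.345 and 1.403 CPM per kb. With water MTCO2P12, at 2.07 and 1.49 CPM per kb, and MTCO3P12, at 2.44 and 1.60 CPM per kb, did not differ beyond their spread. The rows of the 5 members follow each other closely in the table: from MTND2P28 to MTCO3P12 there are 8 rows, of which 3 are not members, and these 3 had at most 2 counts in any HepG2 library. The 2 other identifiers listed for the same stretch had at most 8 counts in any HepG2 library, and they may include a row among these 3.

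Summed over the 5 pseudogenes, 19408 and 20218 counts were found with arsenite, against 20898 and 21845 with water. The sum was 713.7 and 738.9 CPM with arsenite and 775.0 and 794.9 CPM with water, so the arsenite libraries were the lower ones. MTATP6P1 made up 92.7% and 91.7% of the summed counts with arsenite and 82.4% and 86.0% with water. MTND2P28 made up 5.00% and 5.48% with arsenite and 14.2% and 11.8% with water. Without MTATP6P1 the sum was 56.9 ± 6.47 CPM with arsenite and 124.0 ± 17.4 CPM with water (SD, n = 2 each), a difference carried mostly by MTND2P28. The log2 ratio of the mean sums, arsenite over water, was -0.11 for all 5 and -1.12 without MTATP6P1. The sign for all 5 did not hold under every scaling, since DESeq2 size factors gave 0.0040.

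The mitochondrial gene that each pseudogene copies was found by an identifier in the same list and is called its counterpart here. These rows were not chosen by the rule, and their p-values come from the fit across all genes. The list was, however, written with earlier results of these libraries known, so its p-values and counts are not independent evidence of its direction. Among the 13 mitochondrial mRNAs 9 were called lower with arsenite and 0 higher, or 69.2% called, against 30.6% of all genes (edgeR's quasi-likelihood test, 2-sided, Benjamini-Hochberg). By DESeq2 the counts were also 9 lower and 0 higher. Their median log2 fold change was -0.71, within a range of -1.35 to 0.21, while the median over all genes tested was -0.02. Each library keeps the counterpart far above its pseudogene, and the pair may share reads, so these tests are not independent of the pseudogene counts.

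**Figure D2:**
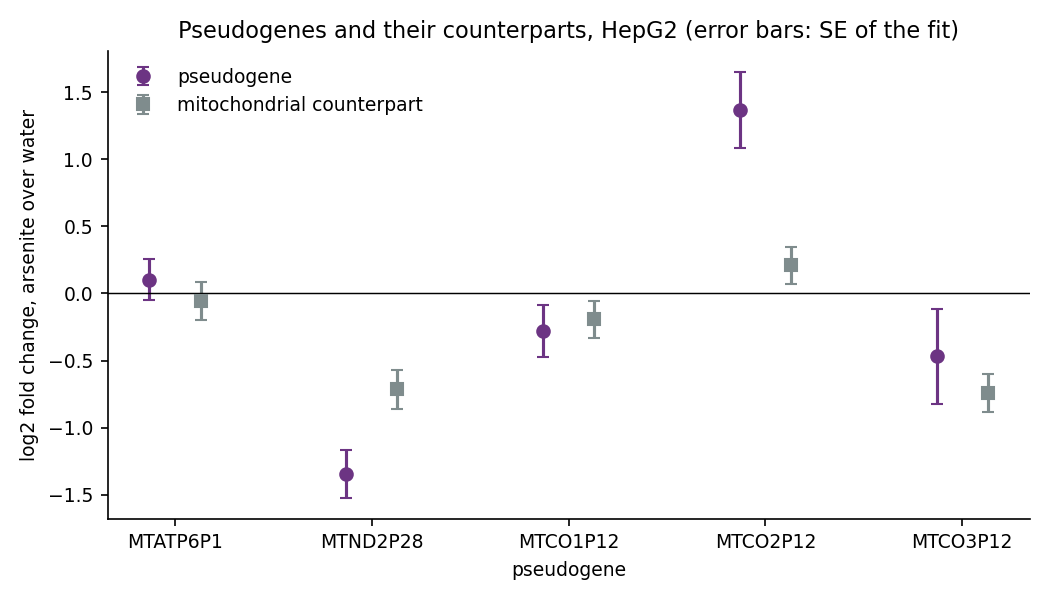
Log2 fold change, arsenite over water, of each pseudogene (circles) and of its mitochondrial counterpart (squares), with the SE of the fit as error bars. For MTATP6P1, MTCO1P12 and MTCO3P12 the error bars of the pair overlap; for MTND2P28 (-1.34 against -0.71) and MTCO2P12 (1.37 against 0.21) the pseudogene lies farther from 0 than its counterpart.

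The counterpart of MTND2P28 had 41882 and 39036 counts with arsenite, against 71828 and 68514 with water. It was called lower, with a log2 fold change of -0.71 (SE 0.15, adjusted p = 2.77e-05, edgeR). MTND2P28 thus went the same way and had the larger difference in size. Per kb, MTND2P28 stood at 2.31% and 2.83% of its counterpart with arsenite and at 4.13% and 3.77% with water, and the groups did not overlap. The difference of the log2 fold changes, pseudogene minus counterpart, was -0.63.

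The counterpart of MTATP6P1 had 99746 and 103291 counts with arsenite, against 119383 and 103714 with water. Its log2 fold change was -0.06 (SE 0.14, adjusted p = 0.789, edgeR). MTATP6P1 therefore had a near-zero fitted difference, as did its counterpart. MTATP6P1 stood at 18.0% and 17.9% of its counterpart per kb with arsenite and at 14.4% and 18.1% with water. The first water library was the low one, and the groups overlapped. This was the highest such percentage of the 5 pairs: 1 read in the MTATP6P1 row went with 5.52 to 6.93 reads in the counterpart's row.

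The counterpart of MTCO2P12 had 263765 and 261199 counts with arsenite, against 247757 and 231540 with water. Its log2 fold change was 0.21 (SE 0.14, adjusted p = 0.246, edgeR), the only positive one among the 13 mitochondrial mRNAs under the TMM scaling. MTCO2P12 stood at 0.0183% and 0.0438% of its counterpart per kb with arsenite and at 0.0154% and 0.0121% with water. The groups did not overlap, but the arsenite libraries lay farther from each other than the lower of them lay from the water libraries. Each MTCO2P12 read went with 2290 to 8270 reads in the counterpart's row, and the part of reads shared between the rows was not tested.

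The counterpart of MTCO1P12 had 246592 and 259811 counts with arsenite, against 311185 and 300233 with water. Its log2 fold change was -0.19 (SE 0.14, adjusted p = 0.289, edgeR), near the -0.28 of MTCO1P12. MTCO1P12 stood at 0.156% and 0.170% of its counterpart per kb with arsenite and at 0.201% and 0.143% with water. The arsenite values fell between the water values.

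The counterpart of MTCO3P12 had 87131 and 83272 counts with arsenite, against 156565 and 144505 with water. It was called lower, with a log2 fold change of -0.74 (SE 0.14, adjusted p = 6.42e-06, edgeR). MTCO3P12 stood at 0.0329% and 0.0361% of its counterpart per kb with arsenite and at 0.0330% and 0.0238% with water, and the groups overlapped. With 20 to 36 reads per library, MTCO3P12 gave too wide an error to tell its difference from that of its counterpart.

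**Figure D3:**
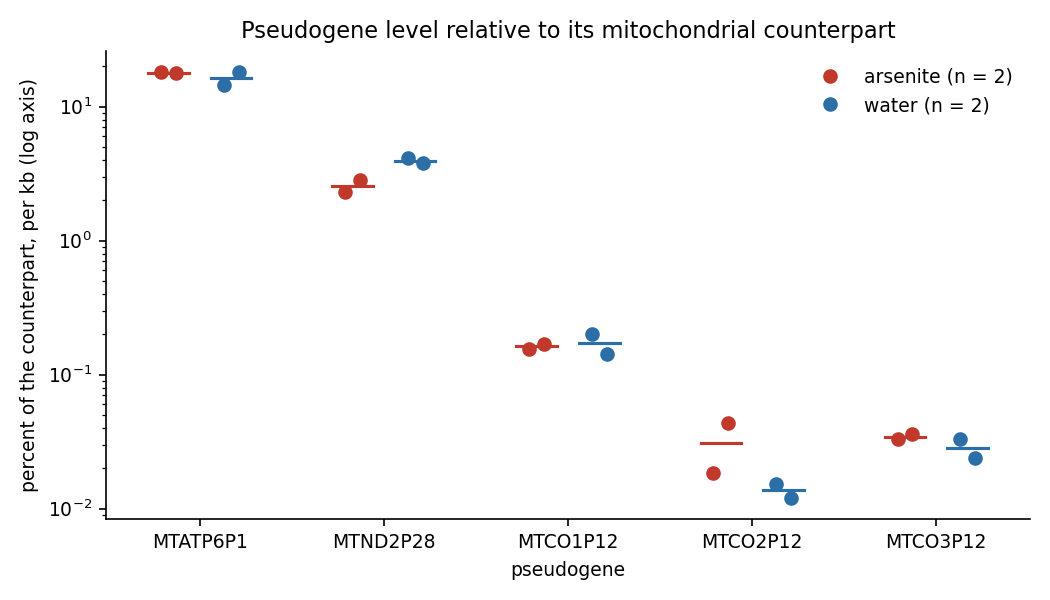
Level of each pseudogene per kb as a percentage of its mitochondrial counterpart in each HepG2 library, on a log axis; points are libraries, lines are means of 2 libraries, red is arsenite and blue is water. The percentages run from 0.0121% for MTCO2P12 to 18.1% for MTATP6P1, and the groups stand apart for MTND2P28 (lower with arsenite) and MTCO2P12 (higher with arsenite).

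Over the 5 pairs together, the pseudogenes had 2.63 and 2.71 counts for each 100 counts of their counterparts with arsenite, against 2.30 and 2.57 with water. The log2 ratio of the mean values, arsenite over water, was 0.13. MTATP6P1 decided this sum as well: without it and its counterpart the log2 ratio was -0.86. The percentage of the counterpart was lower without overlap with arsenite in 1 pair, higher without overlap in 1 pair, and overlapped in 3 pairs. Such percentages have no share over all genes to set beside them. The CPM ranges of the groups did not overlap for 66.7% of all genes tested, so nothing is read from this count.

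**Figure D4:**
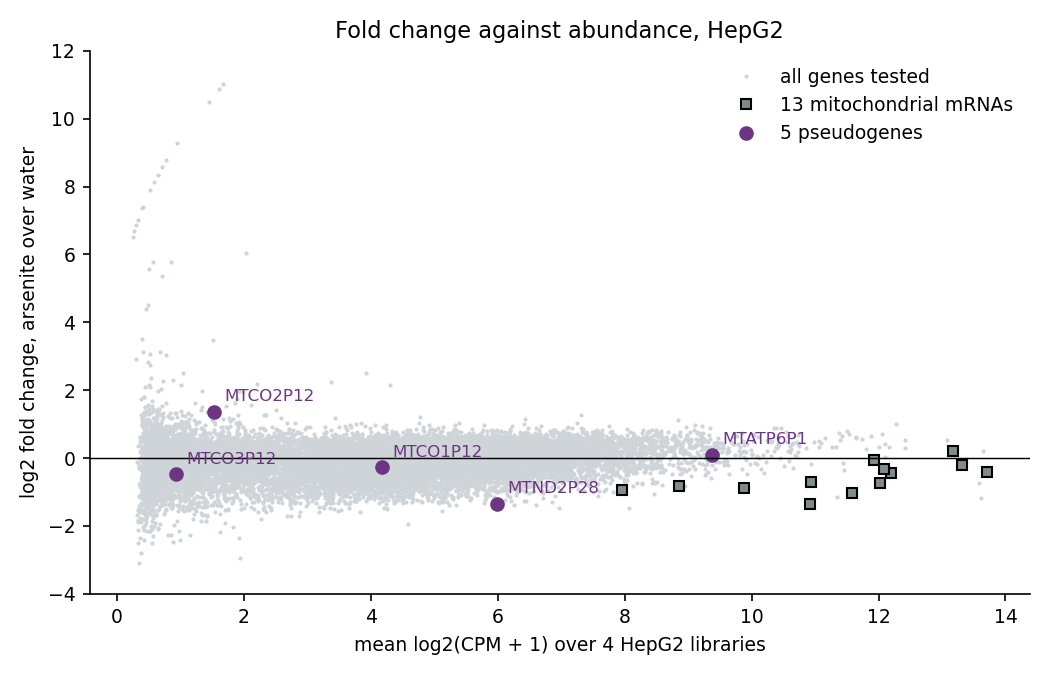
Log2 fold change, arsenite over water, against the mean log2(CPM + 1) over 4 HepG2 libraries for all 14389 genes tested (grey), the 13 mitochondrial mRNAs (squares) and the 5 pseudogenes (circles). The pseudogenes spread from -1.34 for MTND2P28 to 1.37 for MTCO2P12, and MTATP6P1 lies near 0 among the abundant genes.

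Likeness of pattern was measured as the mean absolute difference between profiles of log2(CPM + 1), each centred on its mean over the 4 HepG2 libraries. The mean profile of the 5 members lay at -0.25 and 0.01 with arsenite and at 0.24 and -0.01 with water. It lay 0.58 from MTND2P28, 0.51 from MTCO2P12, 0.15 from MTATP6P1, 0.10 from MTCO1P12 and 0.08 from MTCO3P12, so it stands for the first 2 of these poorly. The nearest of 8589 other genes with a mean of at least 10 CPM were ENSG00000036257 at 0.006 and ENSG00000080815 at 0.007, which the files do not name. For single members, the counterpart ranked 680 of 8589 in likeness to MTND2P28, 1207 for MTCO1P12, 2017 for MTCO2P12, 2702 for MTATP6P1 and 6060 for MTCO3P12. Among the 13 mitochondrial mRNAs alone, the own counterpart ranked 1 for MTCO2P12, 2 for MTATP6P1 and for MTCO1P12, 7 for MTND2P28 and 8 for MTCO3P12. These ranks describe 4 libraries in 2 groups. Members were kept at any CPM, and the 1 added to CPM flattens profiles near 1 CPM. MTCO3P12 lay at 0.7355 to 1.335 CPM and MTCO2P12 at 1.019 to 4.166 CPM. How far this set their distances and ranks was not tested.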

How the data were processed

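Total RNA of HepG2 cells was sequenced from TruSeq RNA v2 libraries, per the labels' protocols. Per the submitters' processing notes, the tools were bcl2fastq (1.8.4), STAR (2.4.1d) and featureCounts (1.4.6-p4) and the build was GRCh38, with no role stated. The sources used here do not state strand or multi-mapping settings. The authors deposited raw read counts per gene and RPKM values, per the file headers. Each deposited RPKM value was divided by a total that changes over a cycle of 14 rows, of which 8 equalled column totals, so RPKM served to recover gene lengths and in an alternative chosen after seeing the data.

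Replicate numbers follow accession order and pair no samples. Counts were fitted in edgeR 4.0.16 (R 4.3.3) with its default filter, TMM scaling and the quasi-likelihood test, 2-sided, with Benjamini-Hochberg adjustment over all genes at 0.05. Only the edgeR fit was tested on simulated data, with a constant spread and with changes placed only in genes above a count threshold. Alternatives were DESeq2 1.42.0, other scaling, no filter and each library left out. Tables and figures used Python 3.11.15 with pandas 2.3.3, numpy 2.4.6, scipy 1.17.1 and matplotlib 3.10.9.

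The members and lists were chosen with earlier results of these data known. The genes named are the 5 members and, for likeness, the nearest genes of at least 10 CPM. The files and reference tables pair no human identifier with a name. Names of the 5 pseudogenes came with the identifiers; the mitochondrial and marker identifiers came from lists written from general knowledge and are used as unnamed lists. As a check, lengths of the 15 mitochondrial rows differed by at most 1.47% from those of the mouse genes in the GENCODE annotation, and 5 were equal. A list of nuclear genes of mitochondrial RNA handling and 6 other pseudogenes, held by symbol alone, could not be matched and were not run. Sequences and coordinates of the members were not used here.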

Additional observations from a re-analysis of the deposited data

How the results depend on the processing

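MTND2P28 was lower with arsenite under all 10 alternatives (log2 -1.48 to -1.21) and MTCO2P12 higher under all 10 (0.69 to 1.87). MTCO3P12 was below 0 in all 10 (-0.75 to -0.12). MTCO1P12 ran from -0.54 (without water replicate 2) to 0.056 (without water replicate 1) with 1 library left out, and was called by the fit only without water replicate 2, in 1 of 8 alternatives with a test; the deposited RPKM gave -0.73. MTATP6P1 turned to -0.031 with totals without mitochondrial rows, a change of scaling, and to -0.16 with the deposited RPKM, which was chosen after seeing the data. The summed log2 ratio of -0.11 became -0.029 with TMM sizes, 0.0040 with DESeq2 size factors, -0.16 with totals without mitochondrial rows and -1.12 without MTATP6P1, and ran from -0.14 to -0.09 with 1 library left out. The ratio to the counterparts, 0.13, became -0.86 without MTATP6P1 and its counterpart, and ran from 0.05 to 0.21 with 1 library left out. Of 4397 genes called, 1693 higher and 2704 lower, leaving out 1 library gave 844 (without arsenite replicate 1) to 4503 (without water replicate 2), with 1378 without water replicate 1 and 2879 without arsenite replicate 2. With library totals alone 1132 were higher and 3317 lower, and the median of all genes shifted to -0.10; with totals without mitochondrial rows 840 were higher and 3655 lower, with a median of -0.15. The mitochondrial mRNAs called lower numbered 7 to 9 with 1 library left out and 9 to 11 under other scaling, and 0 were called higher. No paired analysis was possible because the labels give no replicate numbers. Counts of 20 to 114 reads limit MTCO2P12 and MTCO3P12.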

Other observations

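The 2 mitochondrial rRNA rows, which none of the 5 pseudogenes copies, were both called lower with arsenite, with log2 fold changes of -1.17 and -1.14 in edgeR's fit. Of all genes tested, 18.8% were called lower. The list that holds these 2 rows was written with earlier results of these libraries known, so nothing is read from the count. MTND2P28 had -1.34 and its counterpart -0.71 in the same fit.

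The deposited RPKM values give another picture of MTATP6P1 than its counts do. They were 1367 and 938.3 RPKM with arsenite, against 1355 and 1223 RPKM with water, while the level rebuilt from counts, own library totals and length was 971.2 and 994.7 CPM per kb with arsenite and 938.0 and 1003 CPM per kb with water. The totals behind the 4 deposited MTATP6P1 values ran from 18660000 to 29010000 (rounded to 10000), although the libraries themselves held 26965049 to 27481613 counts. For MTND2P28 the totals used ran from 26970000 to 27480000, and its deposited RPKM of 33.8 and 39.3 with arsenite and 104.1 and 91.2 with water lay near the rebuilt level. The spread of the deposited values of a row therefore depends on where the row stands in the table.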
